A study of Mus musculus with 4 samples.

Results

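The genes described here are 5 carcinoembryonic antigen-related cell adhesion molecule genes, Ceacam1, Ceacam2, Ceacam10, Ceacam18 and Ceacam20, out of 26214 gene rows in the count files. They were matched by symbol, and all 5 had enough counts to enter the test of 16637 genes. They had been picked with the difference between the 2 groups of libraries already known, so their values in that comparison are given as a description and no test is drawn from them. The study asked how loss of the kinase GSK3B from the intestinal epithelium changes the transcriptome of chemically induced mouse colon tumours. All tumours, in both groups, had been induced by AOM/DSS, that is, the carcinogen azoxymethane combined with dextran sulfate sodium, an agent that damages colonic epithelium. The first group is labelled Gsk3b (IEC+/+) and the second Gsk3b (IEC-/-), with 2 libraries of tumour tissue RNA each. The strain, the age, the sex, the deleted exons and the promoter that drives the deletion are not stated in the labels. Nor is it stated whether replicates stand for separate mice. Every p-value therefore reflects the spread between libraries alone, which may be technical.

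Total counts were 25472503 to 27218515 per library. Gsk3b itself had 170, 157, 152 and 149 CPM (counts per 1000000 counts of the scaled library) in IEC+/+ replicates 1 and 2 and IEC-/- replicates 1 and 2, so both IEC-/- libraries lay slightly below both IEC+/+ libraries (log2 fold change -0.12, edgeR adjusted p = 0.681). The total over the gene does not check the labels, since the deleted exons are not stated, and the groups are named by their labels throughout. General epithelial markers (14 genes, among them Epcam and Krt8) were detected in every library, with a summed level of 12144 to 14133 CPM in IEC+/+ and 7879 to 8106 CPM in IEC-/-.

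CEACAM proteins belong to the immunoglobulin superfamily and are built from an N-terminal variable-like domain, often followed by constant-like domains, on a membrane anchor or as secreted proteins. CEACAM1 binds itself and other family members between cells, and its long cytoplasmic tail carries tyrosine motifs that recruit the phosphatases encoded by Ptpn6 and Ptpn11. It is abundant on the apical side of intestinal epithelium and is the receptor of mouse hepatitis virus. CEACAM2 is its closest relative, CEACAM10 is a secreted member, and CEACAM20 is a microvillus protein of intestinal epithelial cells that is dephosphorylated by the receptor phosphatase encoded by Ptprh.

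All 5 genes lie on chromosome 7 (GRCm38, the assembly also called mm10, RefSeq coordinates). Ceacam20 spans chr7:19965352-19991113 on the plus strand and Ceacam10 chr7:24777167-24784656 on the plus strand. Ceacam1 (chr7:25461702-25477647) and Ceacam2 (chr7:25516042-25540004) stand in tandem on the minus strand, 38.4 kb apart, and Ceacam10 is 677 kb from Ceacam1. Ceacam18 (chr7:43634617-43649295, plus strand) is 18.1 Mb beyond Ceacam2. The coding sequences of Ceacam1 and Ceacam2 were 90.4% identical, those of Ceacam1 and Ceacam10 76.9%, and every other pair that includes Ceacam18 or Ceacam20 62.6% to 64.9%.

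Upstream sequences are printed for 3 genes, to be read beside the expression values that follow. The 250-base windows of Ceacam1 and Ceacam10 were nearly the same, and their counts differed between the groups in opposite directions. Whether the upstream sequence has a part in this was not tested. Each line holds the 250 bases before the annotated start (RefSeq, GRCm38.p6), read 5′ to 3′ along the gene, and capitals mark the E-box CACGTG. The start is that of the promoter table, which for Ceacam1 lies a few bases inside the gene span given above, so the end of its window overlaps that span.
Ceacam1, chr7:25477626-25477875, minus strand: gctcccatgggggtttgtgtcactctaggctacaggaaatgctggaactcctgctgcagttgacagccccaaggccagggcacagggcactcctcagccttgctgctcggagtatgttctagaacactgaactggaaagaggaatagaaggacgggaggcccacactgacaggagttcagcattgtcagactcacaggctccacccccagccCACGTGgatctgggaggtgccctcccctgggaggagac
Ceacam10, chr7:24776917-24777166, plus strand: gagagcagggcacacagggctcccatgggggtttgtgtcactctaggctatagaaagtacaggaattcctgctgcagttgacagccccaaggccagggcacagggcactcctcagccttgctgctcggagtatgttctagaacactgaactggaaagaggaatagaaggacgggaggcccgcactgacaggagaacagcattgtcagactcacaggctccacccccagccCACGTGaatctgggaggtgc
Ceacam2, chr7:25540005-25540254, minus strand: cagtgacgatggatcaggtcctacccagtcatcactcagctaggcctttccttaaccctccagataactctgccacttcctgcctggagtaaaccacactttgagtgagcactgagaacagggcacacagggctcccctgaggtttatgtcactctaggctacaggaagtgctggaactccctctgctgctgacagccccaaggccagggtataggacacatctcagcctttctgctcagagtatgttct

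Between the Ceacam1 and Ceacam10 windows, 222 of 232 aligned bases were identical (95.7%), and the longest shared run was 114 bases. Ceacam2 aligned with Ceacam1 over 119 bases, of which 104 were identical (87.4%). Among the 32851 promoters of the RefSeq table, those of 2 other genes shared any run of 20 bases with the Ceacam1 window. These were Ceacam10 (130 such runs) and Ceacam2 (3 runs). The Ceacam18 and Ceacam20 windows shared 0 such runs with any other gene. The E-box, a site class bound by USF proteins and read alike on both strands, starts 38 bases before this Ceacam1 start and 20 bases before the first of the 2 listed Ceacam10 starts. It was found in neither the Ceacam2, the Ceacam18 nor the Ceacam20 window, and 6.02% of all windows hold it. The Ceacam2 window ends at gagtatgttct, letters that the Ceacam1 and Ceacam10 windows hold well before their E-box. Ceacam2 bases matching the E-box stretch of Ceacam1 would therefore lie past the Ceacam2 start, outside the window searched. The other motifs searched on both strands were ATCAAAG (TCF/LEF), GAAANNGAA (IRF), GGGCGG (GC box), CAAAGTCCA (HNF4), TTTATNG (CDX) and ACAATNG (SOX). The TCF/LEF and HNF4 letters can overlap on CAAAG. Of all windows, 3.21% hold the TCF/LEF letters, 7.13% the IRF, 32.7% the GC box, 0.384% the HNF4 and 6.91% the SOX letters. Of these, the CDX letters occurred once each in the Ceacam18 and Ceacam20 windows (9.81% of all windows hold them), and the others had 0 matches in the 5 genes. A match or its absence describes these letters only.

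Across the comparison, 4 of the genes had lower counts in the libraries labelled IEC-/- and Ceacam10 had higher counts. For all 5 genes the groups did not overlap, which held for 48% of all genes tested (24.1% lower and 24% higher in IEC-/-). By edgeR's quasi-likelihood test over all genes, 1 of the 5, Ceacam1, was called at an adjusted p under 0.05, beside 0.884% of all genes (0.763% lower and 0.12% higher). At an unadjusted p under 0.05 all 5 passed (4 lower and 1 higher), beside 16.6% of all genes (9.12% lower and 7.5% higher). Nothing is read from these counts, since the genes were picked on this contrast. Without IEC+/+ replicate 1 or replicate 2 the edgeR adjusted p of Ceacam1 was 0.366 or 0.161, and 0 genes of the series were called.

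**Figure D1:**
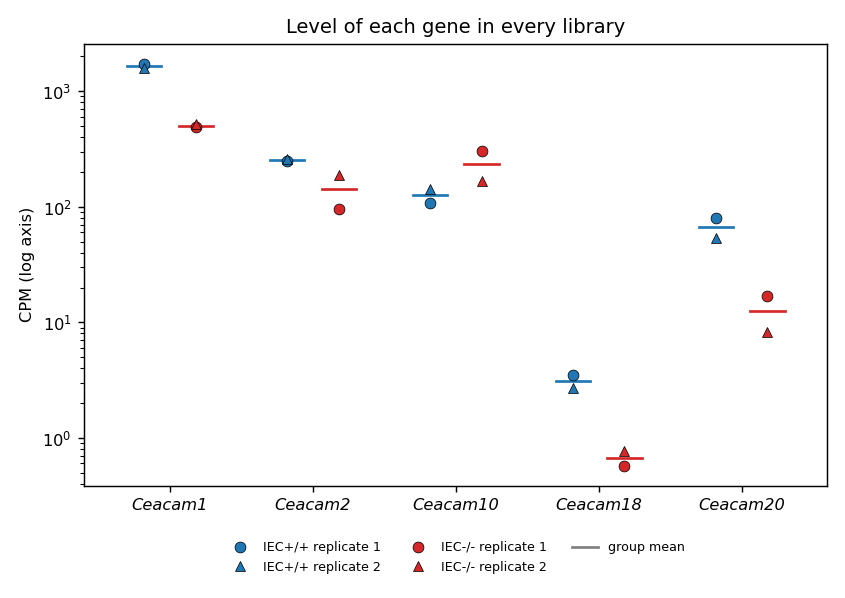
CPM on a log axis for each of the 5 genes, with 1 point per library (circles replicate 1, triangles replicate 2) and a line at each group mean. Ceacam1 libraries of a group lie close together (1718 and 1594 against 485 and 521 CPM), whereas the IEC-/- libraries spread apart for Ceacam2, Ceacam10 and Ceacam20.

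Ceacam1 was by far the most counted of the family and was much lower in both IEC-/- libraries. The IEC+/+ libraries held 44502 (replicate 1) and 42132 (replicate 2) Ceacam1 counts, the IEC-/- libraries 13495 and 13676. In CPM these were 1718, 1594, 485 and 521, so the libraries of a group differed little and the groups lay far apart. Group means were 1656 ± 87.2 against 503 ± 25.4 CPM (SD, n = 2 each), with a log2 fold change of -1.72 (SE 0.12, 95% interval -2.02 to -1.41), or 3.29-fold lower. By mean CPM Ceacam1 ranked 40 among the 16637 genes tested, and 1.39% of genes had a lower log2 fold change.

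Ceacam2, the tandem neighbour, had 6447 and 6816 counts in IEC+/+ and 2645 and 4982 in IEC-/-. Its levels were 249 and 258 CPM against 95.1 and 190 CPM. Both IEC-/- libraries were thus lower, but IEC-/- replicate 2 lay nearer to both IEC+/+ libraries than to IEC-/- replicate 1. The means were 253 ± 6.42 and 143 ± 67.0 CPM (log2 fold change -0.83, SE 0.32, interval -1.63 to -0.03). Without IEC-/- replicate 1 the log2 fold change was -0.43, and without IEC-/- replicate 2 it was -1.42. Reads of the tandem pair are hard to tell apart: of the 150-base windows of Ceacam2 transcripts, 47.3% matched a Ceacam1 transcript with at most 2 mismatches, and of Ceacam1 windows 28.9% matched Ceacam2. How such reads were shared out in counting is not stated, so the separate values of Ceacam1 and Ceacam2 are uncertain. With both genes counted as 1, the log2 fold change was -1.56. An unnamed antisense gene, 4732471J01Rik, spans both loci without sharing an exon base with either, and had 309 and 224 counts in IEC+/+ and 128 and 98 in IEC-/-.

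Ceacam10 had values in the other direction. Its counts were 2814 and 3771 in IEC+/+ and 8370 and 4367 in IEC-/-, or 109, 143, 301 and 166 CPM. Both IEC-/- libraries were higher, but IEC-/- replicate 2 exceeded IEC+/+ replicate 2 by little and IEC-/- replicate 1 stood far above the rest. The means were 126 ± 24.1 and 234 ± 95.2 CPM (log2 fold change 0.90, SE 0.30, interval 0.13 to 1.66), and the value without IEC-/- replicate 1 was 0.39. None of the 1606 windows of Ceacam10 transcripts, with the length and mismatch limit used for Ceacam2, matched another of the 5 genes (0 of 1606). Shorter stretches and genes outside the 5 were not searched. Whether shared reads of those kinds enter its count was therefore not tested.

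The balance between the genes of the near-identical upstream windows, which needs no scaling of libraries, differed several-fold. Ceacam1 had 15.8 and 11.2 counts per Ceacam10 count in IEC+/+ and 1.61 and 3.13 in IEC-/-, so the groups did not overlap. Ceacam1 had 6.90 and 6.18 counts per Ceacam2 count in IEC+/+ and 5.10 and 2.75 in IEC-/-, again without overlap but with most of the distance in IEC-/- replicate 2.

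Ceacam20, the microvillus member, had the lowest log2 fold change of the 5. Its counts were 2085 and 1423 in IEC+/+ and 468 and 216 in IEC-/-, or 80.5, 53.8, 16.8 and 8.23 CPM. Each IEC-/- library lay well under both IEC+/+ libraries, although replicate 1 was the higher library in both groups. The means were 67.2 ± 18.8 and 12.5 ± 6.08 CPM (log2 fold change -2.42, SE 0.39, interval -3.38 to -1.46), or 5.35-fold lower, and 0.589% of genes had a lower log2 fold change. Without IEC-/- replicate 1 the log2 fold change was -3.04.

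Ceacam18 was the least counted of the 5 genes, with 90 and 71 counts in IEC+/+ and 16 and 20 in IEC-/-. These are 3.47, 2.69, 0.575 and 0.762 CPM, with both IEC-/- libraries below both IEC+/+ libraries. The means were 3.08 ± 0.557 and 0.669 ± 0.132 CPM (log2 fold change -2.20, SE 0.46, interval -3.33 to -1.06). At so few counts the interval is the widest of the 5 genes.

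**Figure D2:**
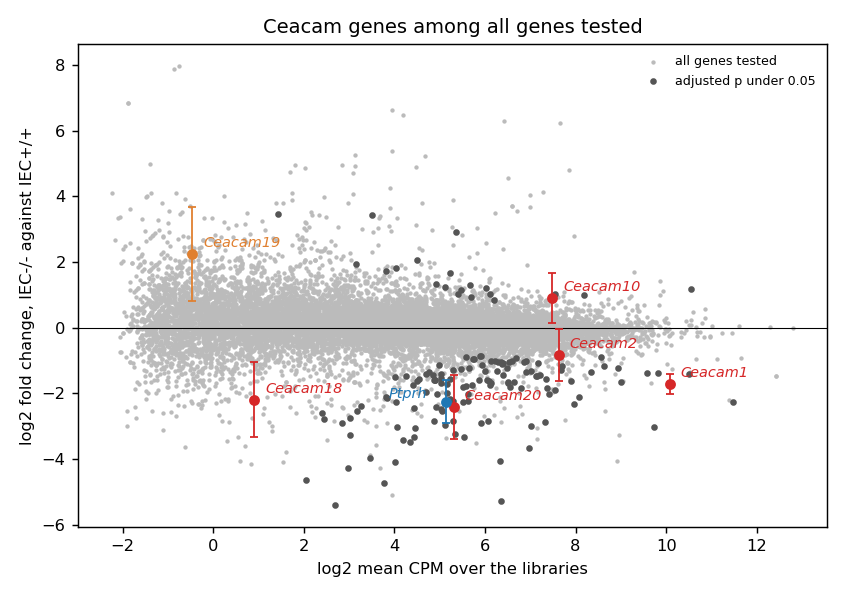
Log2 fold change of IEC-/- against IEC+/+ on the vertical axis and log2 mean CPM on the horizontal axis for all genes tested (grey; dark points had an adjusted p under 0.05), with 95% intervals for the Ceacam genes and for Ptprh. Ceacam1 sits at the right edge of the cloud at -1.72 with a narrow interval, and Ceacam10 lies above 0 while the other 4 genes picked lie below it.

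To set levels of different genes side by side, CPM was divided by transcript length. Per kb of merged exons (GENCODE M21), the IEC+/+ means were 285 ± 15.0 CPM for Ceacam1, 84.0 ± 16.1 for Ceacam10, 66.9 ± 1.70 for Ceacam2, 23.3 ± 6.52 for Ceacam20 and 1.56 ± 0.283 for Ceacam18. Ceacam10 and Ceacam2, neighbours in that order, lay apart by about the SD of Ceacam10, and per kb of coding sequence they overlapped (137 and 179 against 160 and 165). The other neighbours lay further apart than their spread. In IEC-/- the means were 156 ± 63.6 for Ceacam10, 86.7 ± 4.38 for Ceacam1, 37.6 ± 17.7 for Ceacam2, 4.34 ± 2.11 for Ceacam20 and 0.340 ± 0.0671 for Ceacam18. The place of Ceacam10 above Ceacam1 in IEC-/- rests on the length used. Per kb of the longest coding sequence (1563 bases for Ceacam1 and 795 for Ceacam10), Ceacam10 had 379 and 209 CPM and Ceacam1 311 and 334 CPM in IEC-/- replicates 1 and 2, so that Ceacam10 was the higher in replicate 1 and the lower in replicate 2. Under either length Ceacam1 was the highest of the 5 in both IEC+/+ libraries.

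**Figure D3:**
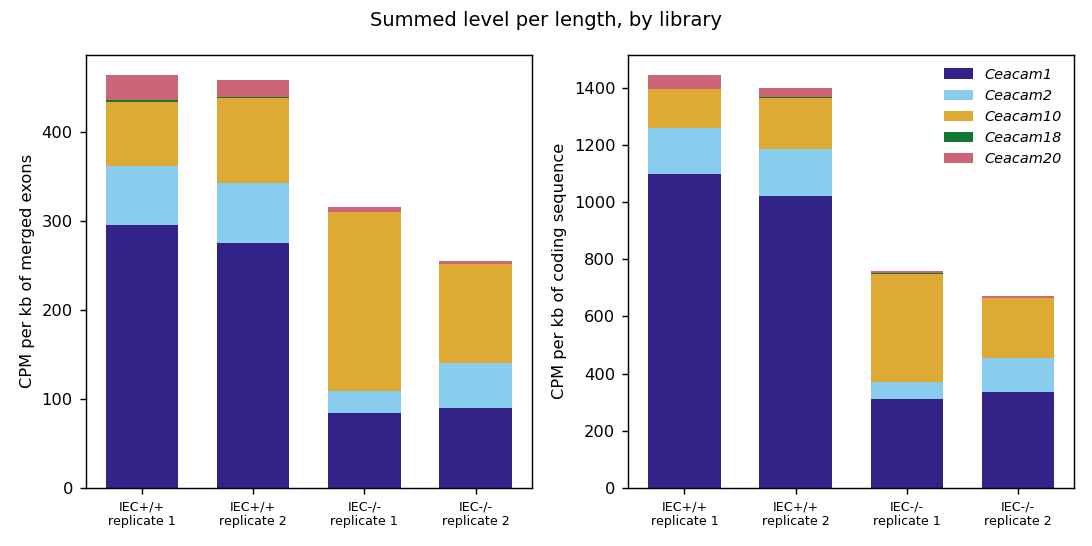
Stacked level of the 5 genes in each library, as CPM per kb of merged exons (left) and per kb of the longest coding sequence (right). On the left the sum was 464 and 458 in IEC+/+ and 316 and 254 in IEC-/-, with a smaller Ceacam1 segment and a larger Ceacam10 segment in IEC-/-.

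Because tumour tissue mixes cell types, fewer cells of a type and less RNA per cell cannot be told apart. Of the 14 general epithelial markers tested, 13 had lower means in IEC-/- and 2 were called lower (Krt20 and Lgals4), beside 0.763% of all genes tested. Their median log2 fold change was -0.65 beside 0.01 over all genes tested. Relative to the summed counts of these markers, Ceacam1 had 122 and 131 counts per 1000 in IEC+/+ and 59.9 and 66.2 in IEC-/-. It was thus still 2.01-fold lower, without overlap. Ceacam20 was 3.41-fold lower (5.69 and 4.43 against 2.08 and 1.05) and Ceacam18 2.81-fold lower on this scale. Ceacam2 had 17.6 and 21.2 against 11.7 and 24.1, so its groups overlapped. Ceacam10 had 7.69 and 11.8 against 37.1 and 21.1, a log2 difference of 1.56. These values depend on which markers weigh most in the sum. Krt8 and Krt19, the most counted in IEC+/+, had log2 fold changes of -0.96 and -0.95. Epcam and Krt18 had -0.30 and -0.07.

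**Figure D4:**
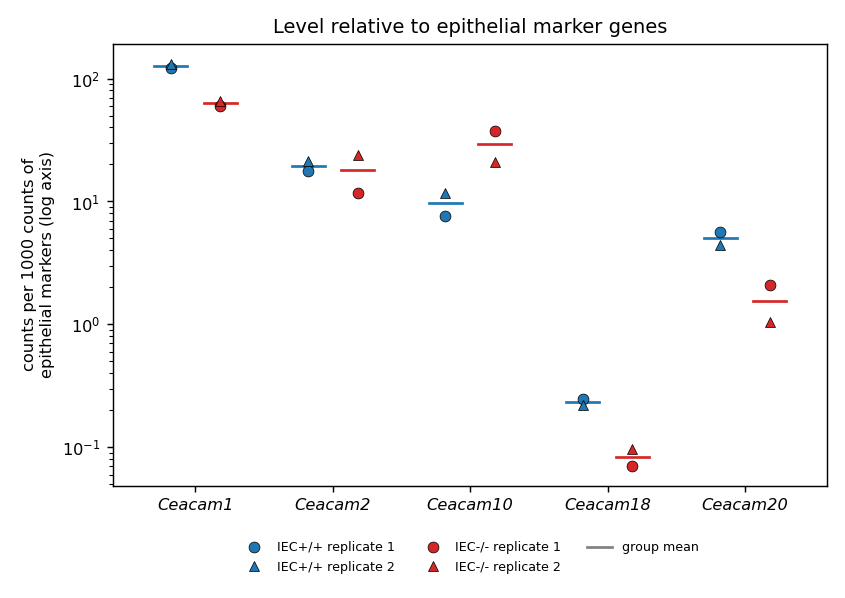
Counts of each gene per 1000 summed counts of 14 epithelial markers, on a log axis, with 1 point per library and a line at each group mean. Ceacam1, Ceacam18 and Ceacam20 remain lower in both IEC-/- libraries, Ceacam10 is higher in both, and Ceacam2 overlaps.

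Markers of single epithelial cell types had larger differences than the general ones. Of 13 differentiated colonocyte markers, 12 had lower means in IEC-/- and 6 were called lower (Aqp8, Car2, Slc5a8, Clca4a, Mep1a and Krt20; median log2 fold change -3.23), and their summed level was 794 to 1342 CPM in IEC+/+ and 196 to 215 CPM in IEC-/-. Of 9 goblet cell markers, all had lower means and 2 were called lower (Fcgbp and Tff3, summed 3502 to 5611 against 677 to 1403 CPM). Over all genes tested, 0.763% were called lower. CEACAM1 is also known on endothelial and myeloid cells. The 9 endothelial markers summed to 213 to 227 CPM in IEC+/+ and 263 to 277 CPM in IEC-/-, and the 10 neutrophil markers to 288 to 426 and 272 to 542 CPM. Of these neutrophil markers, 8 had higher and 2 lower means in IEC-/- (median log2 fold change 0.75). The 1 called, Ly6g, was among the lower ones. The 9 macrophage markers summed to 855 and 711 CPM in IEC+/+ replicates 1 and 2 and to 1395 and 999 CPM in IEC-/- replicates 1 and 2. Like Ceacam10 they were highest in IEC-/- replicate 1, but within IEC+/+ the order of the libraries was the opposite of that of Ceacam10. The part of these cell types in the Ceacam differences was not tested.

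Known binding and signalling partners of CEACAM proteins were then read from the same fit. Of 21 partner genes tested, 2 fell at an adjusted p under 0.05 and 19 did not pass, beside 0.763% of all genes that fell. At an unadjusted p under 0.05 by edgeR, 6 partners were lower and 1 higher, beside 9.12% and 7.5% of all genes. The list's median log2 fold change was 0.00 beside 0.01 over all genes tested. Ptprh, the phosphatase of the microvillus membrane that acts on CEACAM20, had 68.5 and 48.6 CPM in the IEC+/+ pair against 14.4 and 10.1 CPM in the IEC-/- pair (log2 fold change -2.26, SE 0.26, edgeR quasi-likelihood adjusted p = 0.0413). Its libraries stood in the same order as those of Ceacam20, with 1.17 and 1.11 Ceacam20 counts per Ptprh count in IEC+/+ and 1.17 and 0.818 in IEC-/-. The summed general epithelial markers and the summed differentiated colonocyte markers stood in that order too. Tlr4, a receptor of bacterial lipopolysaccharide whose signalling CEACAM1 can restrain, had 63.8 and 60.1 against 33.8 and 32.4 CPM (-0.90, SE 0.12, edgeR adjusted p = 0.0472). Without either IEC+/+ library neither gene passed (adjusted p 0.174 to 0.414 for Ptprh and 0.247 to 0.453 for Tlr4), and by limma-voom neither did (0.0549 and 0.0595). Without a scaling factor Tlr4 did not pass either (0.0600).

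The kinase that binds phosphorylated CEACAM20, encoded by Syk, had 132 and 119 CPM in the IEC+/+ pair against 72.4 and 59.5 CPM in the IEC-/- pair, without overlap (log2 fold change -0.93, SE 0.15, edgeR adjusted p = 0.0649). Anxa2, which encodes the annexin of the complex that binds the CEACAM1 tail, had -0.84 (edgeR adjusted p = 0.0514). The phosphatase genes of the CEACAM1 tail differed less. Ptpn6 had 34.3 and 41.3 against 47.3 and 49.2 CPM (0.35, adjusted p = 0.300), and Ptpn11 had 172 and 171 against 177 and 163 CPM (-0.01, adjusted p = 0.980), both by edgeR.

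**Figure D5:**
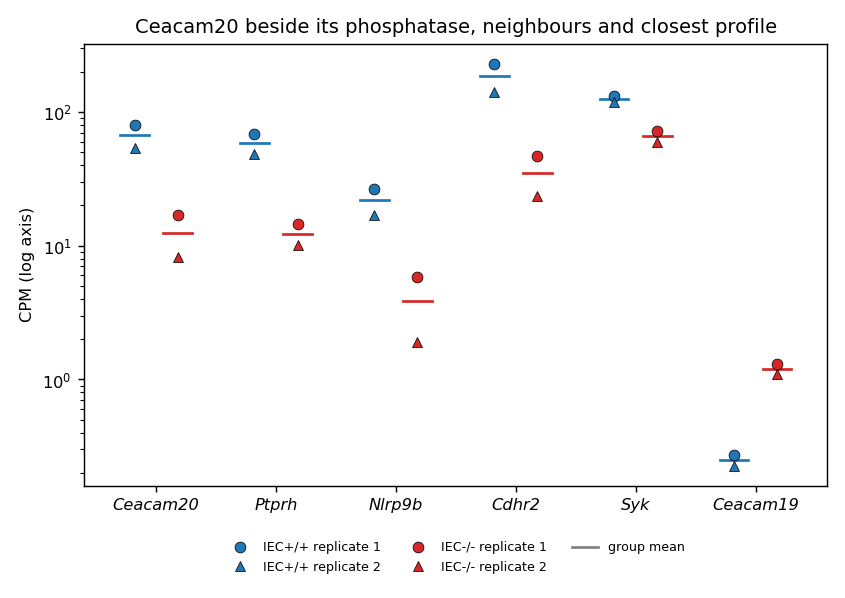
CPM on a log axis for Ceacam20, its phosphatase gene Ptprh, its downstream neighbour Nlrp9b, Cdhr2, the kinase gene Syk and the family member Ceacam19, with 1 point per library and a line at each group mean. The first 5 genes show the same order of the 4 libraries, which the summed general epithelial markers share. Ceacam19 is higher in both IEC-/- libraries at a level near 1 CPM.

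Structural genes of the microvillus had mostly lower means, as Ceacam20 and the general epithelial markers did. For those markers the median log2 fold change was -0.65 (13 of 14 lower), and Vil1 is in both lists. Of 20 microvillus genes tested, 16 had lower means in IEC-/-, 1 fell at an adjusted p under 0.05 and 19 did not pass (median log2 fold change -0.59). Over all genes, 0.763% fell. At an unadjusted p under 0.05 by edgeR, 10 microvillus genes were lower and 2 higher, beside 9.12% and 7.5% of all genes. Cdhr5, a cadherin of the links between microvilli, fell from 352 and 242 CPM to 91.5 and 66.3 CPM (-1.91, SE 0.25, edgeR adjusted p = 0.0472). Its partner gene Cdhr2 had 228 and 141 against 47.0 and 23.4 CPM (-2.39, SE 0.40, edgeR adjusted p = 0.0715), the motor gene Myo1a had -1.03 and Baiap2l1, an actin regulator, -1.21 (adjusted p = 0.0591 and 0.0621). The number called was 0 without either IEC+/+ library, 6 without IEC-/- replicate 1 and 5 without IEC-/- replicate 2. Cdhr5 itself did not pass without IEC+/+ replicate 1 or 2 (edgeR adjusted p = 0.414 and 0.174), by limma-voom (0.0549) or without a scaling factor (0.0548).

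Neither transcription and splicing regulators of Ceacam1 nor other immunoglobulin-type adhesion genes passed the edgeR test with all 4 libraries and no replicate block. Few genes of any kind did (0.884% of all genes tested). Of 10 regulators, 0 passed (median log2 fold change -0.11), and at an unadjusted p under 0.05 there were 1 higher and 2 lower. Pparg had 33.8 and 28.9 against 17.8 and 11.97 CPM (-1.08, adjusted p = 0.125), the splicing factor gene Hnrnpa1 304 and 319 against 472 and 417 CPM (0.51, adjusted p = 0.138), and Smad3 and Sp1 had -0.35 and -0.22. Of 25 other adhesion genes, 0 passed (median 0.03), and 5 were higher and 4 lower by the unadjusted p. By that same measure 7.5% of all genes tested were higher and 9.12% lower. Without IEC-/- replicate 1, 1 regulator (Pparg) and 5 adhesion genes (Bcam, Cadm1, Nectin1, Gpa33 and Vsig1) were called. Cadm4 and Cadm1, which encode nectin-like adhesion proteins, and Bcam, a laminin receptor gene, had values of 0.85, 1.00 and 1.15 on the log2 scale (adjusted p of 0.0725, 0.0967 and 0.115), and Gpa33, the colon epithelial A33 antigen gene, had -0.76 (adjusted p = 0.131).

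The rest of the family had few counts, although Psg16, Psg23 and Ceacam12 had more than Ceacam18 in every library. The files hold 30 rows named Ceacam or Psg (the related pregnancy-specific glycoproteins), and of the 25 outside the 5 genes 8 had 0 counts in every library and 9 reached 10 counts in a library, with a highest count of 346. Of these, 7 were tested and 0 called by edgeR (0.884% of all genes were), with 1 higher and 0 lower by the unadjusted p (7.5% and 9.12% of all genes). Ceacam19 had 7 and 6 counts in the IEC+/+ pair against 36 and 29 (log2 fold change 2.25, SE 0.57, adjusted p = 0.152), so it was higher in both IEC-/- libraries at a level near 1 CPM. Ceacam12 had 163, 132, 126 and 34 counts and Ceacam16 had 19, 23, 12 and 9, in the order IEC+/+ replicates 1 and 2, IEC-/- replicates 1 and 2. Psg16 (217 to 346 counts), Psg23 (121 to 125), Psg17 (15 to 52) and Ceacam9 (7 to 16) overlapped between the groups. Psg19 and Psg26, with at most 37 and 10 counts, were not tested.

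Neighbouring genes were read to see whether the loci moved as blocks. Of 24 named protein-coding neighbours, the 3 nearest on each side of each gene, 12 were tested and 0 called by edgeR, beside 0.884% of all genes. Means were higher for 7 and lower for 5, with a median log2 fold change of 0.10. Nlrp9b, an inflammasome sensor gene that starts 0.279 kb beyond the end of Ceacam20 on the same strand, had 26.7, 17.1, 5.83 and 1.91 CPM (-2.50, SE 0.56, adjusted p = 0.124), or 1 count per 3.02, 3.15, 2.89 and 4.32 counts of Ceacam20. On the other side of Ceacam20, Igsf23 had -0.83 (adjusted p = 0.0962), Pvr -0.04, and Ceacam19, as above, 2.25. Cd177, which encodes a neutrophil and epithelial surface protein 16.8 kb before Ceacam10 on the opposite strand, had 210, 243, 413 and 227 CPM, again highest in IEC-/- replicate 1 (0.50, SE 0.29, adjusted p = 0.460). Cd177 had 1.93 and 1.70 counts per Ceacam10 count in IEC+/+ and 1.37 and 1.36 in IEC-/-. On the other side of Ceacam10, Rps19 had a log2 fold change of 0.03. Around the tandem pair, Lipe had 0.57, Dmac2 -0.26 and B3gnt8 1.10, and around Ceacam18 the tested genes Zfp719, Zfp658 and Ctu1 had 0.18, 0.22 and -0.14.

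The genes with the most similar profile were ranked by the root mean square distance between log2 levels centred on each gene's mean, over the 4 libraries and among 14071 named genes with a mean of at least 1 CPM. With so few libraries this is a description. For Ceacam20 the nearest was Cdhr2 (distance 0.05 on the log2 scale), with 0.353, 0.382, 0.358 and 0.352 Ceacam20 counts per Cdhr2 count in the 4 libraries, followed by Nt5c1a and Adgrg7 (0.13 each). For Ceacam1 the nearest were Tmem181c-ps (0.06), Slc17a9, a vesicular nucleotide transporter gene (0.06), and Serpinb1a, a protease inhibitor gene (0.09). For Ceacam2 they were B4galt4, a galactosyltransferase gene (0.06), Smoc1 (0.06) and Gk, the glycerol kinase gene (0.07), all lowest in IEC-/- replicate 1. For Ceacam10 they were Chst7 (0.06), Gpihbp1, a capillary lipoprotein lipase anchor gene (0.07), and Lilra5 (0.09). For Ceacam18 they were Slc16a5, a monocarboxylate transporter gene (0.07), Vstm2l (0.09) and St6galnac6, a sialyltransferase gene (0.09). Chst7 had 25 to 77 counts, Gpihbp1 54 to 144, Lilra5 61 to 155 and Vstm2l 10 to 57. At so few counts such small distances, and the order they give, are uncertain. Among the 5 genes themselves the smallest distance was 0.22, between Ceacam1 and Ceacam18, and the largest 1.70, between Ceacam10 and Ceacam20.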

How the data were processed

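Polyadenylated RNA of mouse colon tumour tissue was sequenced from 4 libraries, 2 per group, and groups were taken from the sample titles. Files deposited by the authors give raw read counts, whole numbers for each gene symbol, in 1 file per library. Per the submitters' processing notes TopHat, limma, edgeR and mm10 were used, without versions or roles; which counter, annotation and strand setting made the counts is not given in the sources used here. Both the Ceacam genes and the gene lists were chosen with earlier results of these data known.

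Counts were scaled by TMM (factors 0.955 to 1.05), filtered by expression (16637 of 26214 rows kept) and tested with the quasi-likelihood F-test of edgeR 4.0.16 (R 4.3.3), IEC-/- against IEC+/+ with no other term, with Benjamini-Hochberg adjustment over all genes tested. Standard errors were derived from the F statistic. CPM were computed on the scaled library sizes, and means are given ± SD. Of the 14 gene lists, 1 gene (Ceacam17) was not matched. Genes named were the 5 picked, Gsk3b and list genes called. Named too were the 4 smallest p of each partner, regulator, microvillus and adhesion list with Ptprh, Ptpn6 and Ptpn11. The 3 nearest profiles, the tested genes among the 3 nearest neighbours on each side, and family rows reaching 10 counts were also named. Profiles used log2 CPM with a prior count of 2. Promoters (5 of 5 genes matched) are from RefSeq on GRCm38.p6; transcripts and exons are from GENCODE M21, compared with Biopython 1.88. Alternatives were DESeq2 1.42.0, limma-voom (limma 3.58.1), other scalings, no filter, the replicate block and each library left out. Depth was alike across libraries. No library repeated another: the chi-square per degree of freedom was 33.8 within IEC+/+ and 66.6 within IEC-/-.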

Additional observations from a re-analysis of the deposited data

How the results depend on the processing

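The direction of all 5 Ceacam differences was the same under every alternative run (12 for Ceacam1 and Ceacam2, 11 for each of the others), and groups that do not overlap can hardly give another. Leaving out 1 library gave log2 differences of -1.77 to -1.67 for Ceacam1, -1.42 to -0.43 for Ceacam2, 0.39 to 1.25 for Ceacam10, -2.41 to -2.003 for Ceacam18 and -3.04 to -1.999 for Ceacam20. Per summed epithelial markers the differences were -1.005, -0.20, 1.56, -1.49 and -1.77 in the same order. Counting Ceacam1 and Ceacam2 as 1 gene, an alternative added after seeing the data, gave -1.56 for either. Without a scaling factor the median of all genes shifted by 0.11 and Ceacam1 had -1.61. With 2 libraries per group the number of calls moved widely. Over all genes it was 147 (127 lower) and became 83 without a scaling factor, 376 without the filter, 1303 by DESeq2 (62.5% lower), 78 by limma-voom and 0 to 729 with 1 library left out (0 by edgeR without IEC+/+ replicate 1 or 2, where 579 or 660 genes were higher and 805 or 1094 lower at an unadjusted p under 0.05, 729 without IEC-/- replicate 1 and 567 without IEC-/- replicate 2). Of the 5 Ceacam genes, 1 was called, and 2 without the filter, 4 by DESeq2 and 0 to 4 with 1 library left out. Of the partners, 2 were called, and 1 without a scaling factor, 5 without the filter, 6 by DESeq2, 0 by limma-voom (6 lower at an unadjusted p under 0.05) and 0 to 4 with 1 library left out. The cause was not tested. Fits with 1 library left out take the lone library to vary like the other group. With the replicate block 211 genes, 2 Ceacam genes (Ceacam1 and Ceacam20, adjusted p = 0.0285 each by edgeR) and 1 partner (Ptprh) were called. Tlr4 then did not pass (adjusted p = 0.0553), 1 adhesion gene did (Bcam, higher, adjusted p = 0.0420), and 5 microvillus genes were called in place of 1. The labels give the numbers no shared origin, and same-numbered libraries deviated together with a correlation of 0.16 across genes.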

Other observations

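Within IEC-/- the replicates stood apart for some Ceacam genes and some cell type markers. In IEC-/- replicate 1 Ceacam2 was at 95.1 CPM and Ceacam10 at 301 CPM, and in replicate 2 they were at 190 and 166 CPM, whereas Ceacam1 had 485 and 521 CPM. B cell markers (6 genes) summed to 226 CPM in IEC-/- replicate 1 and 2503 CPM in replicate 2, beside 580 and 693 CPM in IEC+/+, and goblet cell markers to 677 and 1403 CPM. The smooth muscle and fibroblast markers (12 genes) summed to 2518 and 2222 CPM, beside 3907 and 2323 CPM in IEC+/+, and the T and NK cell markers (9 genes) to 20.9 and 30.4 CPM, beside 18.8 and 15.6 CPM.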
